A study of Mus musculus with 6 samples.

Results

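The sterol and fatty acid synthesis genes are 43 genes chosen by symbol, out of 51912 genes in a table of RNA sequencing counts. The cells sequenced were EL4, a line grown from a mouse lymphoma of T cells. They comprise 5 regulators of sterol-responsive transcription, 7 genes of the mevalonate segment of cholesterol synthesis, 11 genes that act from squalene formation to cholesterol, and 1 sterol transfer gene. Another 6 genes make fatty acids, 7 desaturate or elongate them, and 6 activate or store them. Each symbol matched exactly 1 row of the table. All 6 libraries came from EL4 cells of wild-type genotype, of which 3 were given vehicle and 3 were given RGFP966 at 10 µM for 24 h. RGFP966 inhibits HDAC3, a histone deacetylase. Whether the 3 libraries within each group are separate cultures is not stated in the labels, so p-values measure the spread between these libraries, which may be technical. Both groups are cultures of this single line, so the results describe 1 tumour cell line.

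Cholesterol is built from acetyl-CoA through mevalonate, isoprenoids, squalene and lanosterol, and fatty acids from the same acetyl-CoA through malonyl-CoA. The sterol regulatory element-binding proteins (SREBPs) are membrane-bound transcription factors for most of these genes. When sterols are low, the escort protein SCAP carries an SREBP to the Golgi for cleavage, and when sterols are high, INSIG proteins hold the complex in the endoplasmic reticulum. Proliferating T cells and lymphomas use both pathways to make membrane. HDAC3 is the deacetylase of the NCoR corepressor complex and is known in liver as a repressor of lipid synthesis genes.

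Levels are CPM, a gene's count in proportion to its library's scaled total. Library totals ran from 15380331 to 16451017 counts with vehicle and from 12935443 to 14768540 with RGFP966, a mean of 13.3% lower with the inhibitor (two-sided exact permutation p = 0.1, the smallest that n = 3 per group allows). The label of a T lymphocyte was checked against 11 T cell markers, which all had a mean of at least 23.9 CPM. Their sum was higher with RGFP966 (2950 to 3004 CPM) than with vehicle (2850 to 2873 CPM). The extraction text speaks of retinas, but the 10 retina markers summed to 4.29 to 4.67 CPM with vehicle and 4.34 to 4.70 with RGFP966, and Crx, Rbp3 and Gnat1 had a count of 0 in every library. The 8 adipocyte markers summed to at most 0.959 CPM, with Pparg and Cfd at 0. The 8 hepatocyte markers summed to 14.9 to 18.7 CPM over all libraries, nearly all from Tat, with Fgb, Cyp2e1 and Serpina1a at 0. The 8 macrophage markers summed to 12.2 to 13.8 CPM over all libraries, with Adgre1, C1qa and C1qb at 0. The sums of 7 B cell markers (11.5 to 12.1 and 18.4 to 18.9 CPM) and of 7 fibroblast markers (44.3 to 45.5 and 54.8 to 57.4 CPM) were higher with RGFP966, led by Cd22 and Pdgfra, while Ms4a1, Col3a1 and Pdgfrb stood at 0. Hdac3 itself measured 89.1 ± 3.83 (SD, n = 3) and 85.9 ± 2.49 CPM (log2 fold change -0.05 ± 0.05 SE, edgeR adjusted p = 0.482), which says nothing of the enzyme's activity.

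The question was which lipid synthesis genes differ after exposure to the HDAC3 inhibitor. The genes did not move as a block. With RGFP966, 11 rose: Cyp51, Msmo1, Sc5d and Dhcr7 of the late cholesterol steps, Acaca and Fasn of fatty acid synthesis, Scd1, Scd2 and Elovl5 of desaturation and elongation, and Plin2 and Acsl4 of storage and activation. The 4 that fell were Srebf1, Hsd17b7, Acly and Elovl1. The other 26 tested genes were not called, and 2, Fads2 and Dgat2, were too scarce to test. The changes were small, the largest rise being 31.6% (Dhcr7) and the largest fall -17.4% (Elovl1).

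These calls come from the edgeR quasi-likelihood test on all 13484 genes with enough counts, at an adjusted p under 0.05. Of the 41 tested genes 26.8% were higher and 9.76% lower, where 11.4% of all tested genes were higher and 11.9% were lower. The median log2 fold change was -0.01 over the 41 genes and -0.00 over all genes tested. By branch the median was -0.01 for the regulators, -0.05 for the mevalonate genes, -0.04 from squalene onwards, and 0.07 both in desaturation and elongation and in activation and storage. In fatty acid synthesis it was 0.07 as well, but -0.11 without vehicle library 3 and -0.02 without RGFP966 library 3. The median of the regulators turned to 0.01 without vehicle library 1 and to 0.02 without RGFP966 library 3. Under upper-quartile scaling the balance of all calls moved from 49.1% rises to 59.1% rises, and all 15 calls made here held under each of 3 other scalings. Of the 41 genes, 24 had a mean of at least 100 CPM. At that level 10 of the 24 were higher and 3 were lower, where 13.5% of all such genes were higher and 22.2% lower. Below it 1 of 17 was higher and 1 was lower, or 5.88% each way, where 11.4% and 11.9% of tested genes at any level were. The share of all genes under 100 CPM was not computed, and each of these shares rests on 1 gene. Without RGFP966 library 3 the number of falls was 2 in place of 4. In these bulk libraries a change in the share of cells that express a gene cannot be told apart from a change per cell.

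**Figure D1:**
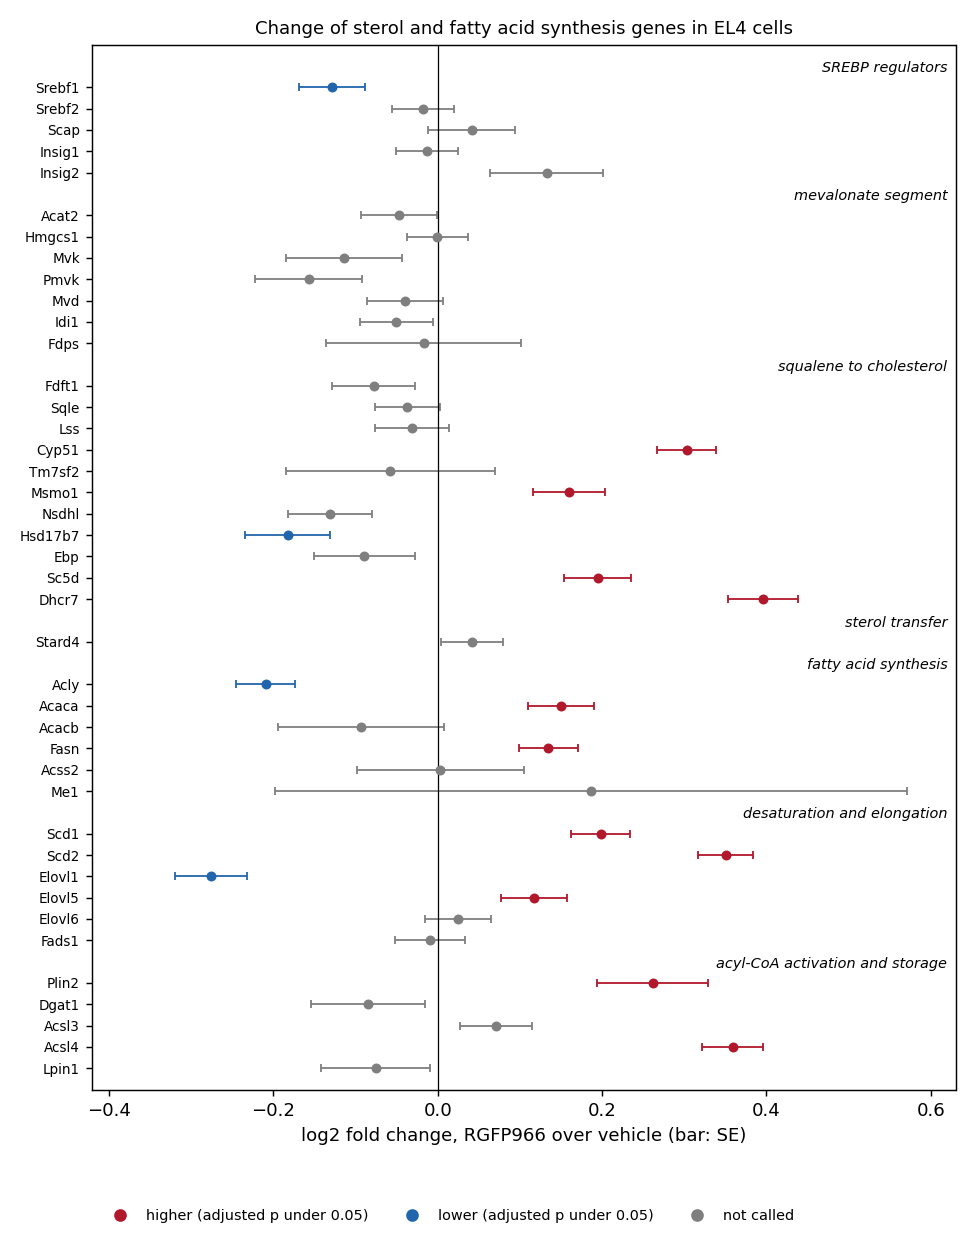
Log2 fold change of each of the 41 tested genes (x axis, RGFP966 over vehicle, bars are the SE from edgeR), listed by branch in pathway order (y axis), with genes that passed the test in red or blue. The 7 mevalonate genes all lie in grey at or below 0, while Cyp51, Msmo1, Sc5d and Dhcr7 lie to the right.

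Among the regulators, Srebf1, which encodes the SREBP that favours fatty acid genes, had 188, 188 and 191 CPM in the vehicle libraries and 178, 169 and 171 CPM in the RGFP966 libraries. All 3 RGFP966 libraries lay below all 3 vehicle libraries, and Srebf1 fell by 0.13 on the log2 scale (SE 0.04, edgeR adjusted p = 0.0141). That call was lost without vehicle library 3 (adjusted p = 0.0542), without RGFP966 library 2 (0.0743) and without RGFP966 library 3 (0.0756). Srebf2, which encodes the SREBP that favours cholesterol genes, had 382, 357 and 372 CPM with vehicle and 370, 375 and 352 CPM with RGFP966, so the groups overlapped (log2 fold change -0.02 ± 0.04 SE, adjusted p = 0.782).

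Insig1, itself a known SREBP target and a common readout of SREBP activity, had 374, 366 and 345 CPM with vehicle and 352, 360 and 363 CPM with RGFP966. The libraries of both groups were interleaved (log2 fold change -0.01 ± 0.04 SE, edgeR adjusted p = 0.847). Insig2, the related gene whose transcription SREBPs do not drive, had 34.2, 35.4 and 34.0 CPM with vehicle and 37.0, 36.0 and 40.5 CPM with RGFP966. Its groups did not overlap, with RGFP966 above, but the difference did not pass the test (log2 fold change 0.13 ± 0.07 SE, adjusted p = 0.168). Scap, the escort gene, measured 65.5 ± 0.642 (SD, n = 3) and 67.4 ± 1.91 CPM (adjusted p = 0.631). Other genes overlap 13.2% of its exonic sequence, foremost 5830462I19Rik on the other strand.

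In the mevalonate segment, 0 of 7 genes were called in either direction by edgeR, by limma-voom or by DESeq2, and Pmvk alone had an unadjusted p under 0.05 in edgeR. Of all tested genes 23.3% were called by edgeR in either direction, and 7 genes are too few to tell 0 calls from that share. Hmgcs1, which makes HMG-CoA from acetoacetyl-CoA, was the most abundant mevalonate gene by CPM. It had 608, 591 and 565 CPM in vehicle and 565, 598 and 601 CPM in RGFP966 libraries. Its group means were 588 ± 21.9 (SD, n = 3) and 588 ± 19.7 CPM, with a log2 fold change of -0.00 ± 0.04 (SE). Pmvk, the phosphomevalonate kinase gene, had 45.8, 49.1 and 43.3 CPM with vehicle and 41.7, 43.6 and 39.0 CPM with RGFP966, with 1 library of each group interleaved. Its log2 fold change was -0.16 ± 0.07 (SE, adjusted p = 0.0744), and it reached 0.0478 without vehicle library 3 and 0.0488 without RGFP966 library 2.

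The other mevalonate genes had log2 fold changes between -0.11 and -0.02, and 0 of the 5 had an unadjusted p under 0.05 in edgeR. They were Acat2, an acetoacetyl-CoA thiolase (adjusted p = 0.511), Mvk, the mevalonate kinase (0.263), Mvd, the decarboxylase that makes isopentenyl diphosphate (0.595), Idi1, its isomerase (0.458), and Fdps, the farnesyl diphosphate synthase (0.94). Several of these share sequence with other genes, measured as the share of a gene's 50-base words that other annotated transcripts also hold. That share was 39.1% for Acat2, with Acat3 foremost at 1.37 CPM in vehicle, 25.3% for Idi1 and 26.2% for Fdps. Fdps stood at 11.6 CPM. Other genes overlap 26.7% of its exonic sequence, foremost Gm43738, which had a count of 0 in every library. The labels do not say how reads of shared sequence were counted, so the level of Fdps is uncertain.

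From squalene onwards the genes went both ways, with 4 of 11 higher, 1 lower and 6 not called, where 11.4% of all tested genes were higher and 11.9% lower. Dhcr7 (chromosome 7, 143823145 to 143848410, plus strand, mm10) encodes the reductase that turns 7-dehydrocholesterol into cholesterol, the final step. It had 127, 126 and 121 CPM in vehicle libraries and 159, 169 and 164 CPM in RGFP966 libraries. Every RGFP966 library was above every vehicle library by a wide margin relative to the spread within groups, and the log2 fold change was 0.40 ± 0.04 (SE, edgeR adjusted p = 2.50e-10).

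Cyp51 (chromosome 5, 4081145 to 4104746, minus strand), the lanosterol demethylase and the first enzyme after ring closure, had 489, 485 and 470 CPM with vehicle and 590, 610 and 583 CPM with RGFP966. It rose by 23.4% (log2 fold change 0.30 ± 0.04 SE, edgeR adjusted p = 3.79e-09). Sc5d, the desaturase just upstream of Dhcr7 in the pathway, had 191, 192 and 177 CPM with vehicle and 211, 217 and 212 CPM with RGFP966 (log2 fold change 0.19 ± 0.04 SE, adjusted p = 2.38e-04). Msmo1, the methyl oxidase that acts after Cyp51, had 173, 171 and 160 CPM with vehicle and 177, 201 and 186 CPM with RGFP966. Its lowest RGFP966 library was close to its highest vehicle library, and the call (log2 fold change 0.16 ± 0.04 SE, adjusted p = 0.00467) was lost without RGFP966 library 2 (log2 fold change 0.11, adjusted p = 0.0878).

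Hsd17b7 and Nsdhl, the ketoreductase and the dehydrogenase that work with Msmo1 to remove methyl groups at carbon 4 of the sterol ring, were on the other side. Hsd17b7 had 76.3, 73.8 and 75.0 CPM in vehicle and 65.3, 69.0 and 64.3 CPM in RGFP966 libraries. It fell by 0.18 on the log2 scale (SE 0.05, edgeR adjusted p = 0.00669), a call lost without RGFP966 library 3 (adjusted p = 0.0634). Nsdhl had 83.9, 82.4 and 76.4 CPM in vehicle and 74.3, 71.7 and 75.5 CPM in RGFP966 libraries, which did not overlap, yet it stayed just outside the threshold (log2 fold change -0.13 ± 0.05 SE, adjusted p = 0.0547). It passed without vehicle library 3 (log2 fold change -0.17, adjusted p = 0.0278) and with the replicate number as a block (-0.13 on that scale, adjusted p = 0.043).

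The steps before lanosterol did not pass the test. Fdft1, the squalene synthase gene, measured -0.08 ± 0.05 (log2 fold change ± SE, edgeR adjusted p = 0.292). Other genes overlap 18.3% of its exonic sequence, foremost Ctsb on the other strand. Sqle, the rate-limiting squalene epoxidase, had 225, 217 and 218 CPM in vehicle and 215, 208 and 220 CPM in RGFP966 libraries, interleaved. Lss, the lanosterol synthase, measured 180 ± 8.95 (SD, n = 3) and 176 ± 11.7 CPM. Ebp, a sterol isomerase, measured 48.0 ± 1.86 and 45.2 ± 0.749 CPM, groups that did not overlap but did not pass the test (adjusted p = 0.321). Tm7sf2, a sterol reductase gene at about 10 CPM, measured -0.06 ± 0.13 (SE), so that only a large change could have been seen. Other genes overlap 12.1% of its exonic sequence, foremost Vps51 on the same strand. Vps51 went from 30.2 to 21.1 CPM (log2 fold change -0.52 ± 0.08 SE, edgeR adjusted p = 1.62e-06). The part of that overlap in the Tm7sf2 result was not tested. Stard4, a cytosolic sterol carrier and known SREBP target, had 290.0, 278 and 287 CPM in vehicle and 291, 291 and 298 CPM in RGFP966 libraries (log2 fold change 0.04 ± 0.04 SE, edgeR adjusted p = 0.468).

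Among the 6 fatty acid synthesis genes, 2 rose and 1 fell, where 11.4% of all tested genes were higher and 11.9% lower. Acly (chromosome 11, 100476353 to 100528000, minus strand), the enzyme that splits citrate into cytosolic acetyl-CoA for both pathways, had 648, 622 and 652 CPM with vehicle and 540, 557 and 566 CPM with RGFP966. All RGFP966 libraries were lower, by -13.5% on average (log2 fold change -0.21 ± 0.04 SE, edgeR adjusted p = 1.18e-05). Fasn, the fatty acid synthase downstream of it, had 1401, 1390 and 1508 CPM with vehicle and 1602, 1579 and 1538 CPM with RGFP966. Fasn rose by 9.78% (log2 fold change 0.13 ± 0.04 SE, adjusted p = 0.00358), with an adjusted p of 0.0572 without RGFP966 library 1.

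Acaca, the cytosolic acetyl-CoA carboxylase that commits carbon to fatty acids, had 291, 274 and 311 CPM with vehicle and 327, 325 and 321 CPM with RGFP966. The vehicle libraries were more scattered than the RGFP966 libraries and all lay below them (log2 fold change 0.15 ± 0.04 SE, edgeR adjusted p = 0.00355). Of the Acaca sequence 30.4% is shared with other genes, most with Gm5182, a predicted gene that itself measured 46.4 and 55.2 CPM and rose too (log2 fold change 0.25 ± 0.06 SE, adjusted p = 0.00132). The part of shared reads in the Acaca result was not tested. Acacb, the carboxylase form tied to fatty acid oxidation, measured 17.4 ± 1.92 (SD, n = 3) and 16.2 ± 1.19 CPM. Acss2, which makes acetyl-CoA from acetate, measured 17.8 ± 2.66 and 17.9 ± 1.47 CPM. Me1, the cytosolic malic enzyme that supplies NADPH, had between 8 and 23 counts per library, which leaves its log2 fold change at 0.19 ± 0.38 (SE).

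Desaturation held the most abundant gene. Scd2 (chromosome 19, 44293674 to 44306864, plus strand), a stearoyl-CoA desaturase that makes oleate, had 2572, 2513 and 2519 CPM in vehicle libraries and 3201, 3310 and 3181 CPM in RGFP966 libraries. The gap between the groups was many times the spread within them, and the log2 fold change was 0.35 ± 0.03 (SE, edgeR adjusted p = 1.51e-11). Scd1, its neighbour on chromosome 19 with the same reaction, had 388, 392 and 390.2 CPM with vehicle and 442, 460 and 442 CPM with RGFP966 (log2 fold change 0.20 ± 0.04 SE, adjusted p = 3.11e-05). They shared 3.97% and 4.56% of their sequence with other genes. Scd2 alone took 23.7% to 23.9% of the summed level of the 43 genes in vehicle and 27.3% to 27.7% in RGFP966 libraries. That sum was 10645 ± 111 (SD, n = 3) CPM with vehicle and 11731 ± 174 with RGFP966, and without Scd2 it was 8111 ± 81.6 and 8500 ± 107 CPM.

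The elongases were divided. Elovl1 (chromosome 4, 118428093 to 118432953, plus strand), which extends very long saturated chains for sphingolipids, had 130.4, 129.7 and 129.1 CPM in vehicle and 109, 105 and 108 CPM in RGFP966 libraries. It was the largest fall of the 41 genes (log2 fold change -0.28 ± 0.04 SE, edgeR adjusted p = 2.56e-06). Other genes overlap 1.94% of the exonic length of Elovl1, foremost Cdc20 on the opposite strand. Cdc20, a mitotic activator, went from 263 to 179 CPM (log2 fold change -0.55 ± 0.04 SE, edgeR adjusted p = 1.88e-15). The part of that overlap in the Elovl1 result was not tested. Elovl5, which elongates polyunsaturated chains, had 187, 196 and 198 CPM with vehicle and 211, 216 and 204 CPM with RGFP966. Its call (log2 fold change 0.12 ± 0.04 SE, adjusted p = 0.0271) was lost in the DESeq2 Wald test (0.0533) and without vehicle library 1 (0.151), RGFP966 library 1 (0.0939) or RGFP966 library 2 (0.131).

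Elovl6, which takes palmitate to stearate, measured 215 ± 8.82 (SD, n = 3) and 219 ± 6.74 CPM with overlapping groups. Fads1, the delta-5 desaturase of polyunsaturated fatty acids, measured 126 ± 0.904 and 125 ± 3.16 CPM, also overlapping. Fads2, the delta-6 desaturase that precedes Fads1, had 2 counts in vehicle library 3 and 0 in the other libraries. Dgat2, a final enzyme of triglyceride synthesis, had 0 counts in all 6. A count of 0 allows up to 3 counts in a library, which is 0.182 to 0.232 CPM here and covers counting error only.

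Of the activation and storage genes, 2 of 5 tested rose and 0 fell, with 0 falls at an unadjusted p under 0.05 in edgeR and 0 at an adjusted p under 0.05 in DESeq2 or limma-voom. Of all tested genes 11.4% were higher and 11.9% lower, and 5 genes are too few to tell 0 falls from that share. Acsl4 (chromosome X, 142317993 to 142390535, minus strand), an acyl-CoA synthetase that prefers arachidonate and is known for its part in ferroptosis, had 381, 377 and 374 CPM in vehicle and 463, 504 and 485 CPM in RGFP966 libraries. Its lowest RGFP966 library was well above its highest vehicle library (log2 fold change 0.36 ± 0.04 SE, edgeR adjusted p = 9.51e-11). Acsl3, the synthetase of lipid droplet growth, had 121, 122 and 117 CPM and then 123, 129 and 125 CPM, groups that did not overlap without passing the test (log2 fold change 0.07 ± 0.04 SE, adjusted p = 0.257).

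Plin2, which coats lipid droplets, had 33.3, 33.8 and 36.8 CPM with vehicle and 40.4, 41.8 and 42.2 CPM with RGFP966 (log2 fold change 0.26 ± 0.07 SE, edgeR adjusted p = 0.00276). It was the only gene under 100 CPM among the 11 that rose. Dgat1, the other triglyceride-forming enzyme, measured 35.6 ± 0.825 (SD, n = 3) and 33.6 ± 1.40 CPM, and Lpin1, a phosphatidate phosphatase, 45.9 ± 4.42 and 43.6 ± 1.46 CPM. Neither passed the test (adjusted p = 0.423 and 0.454).

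**Figure D2:**
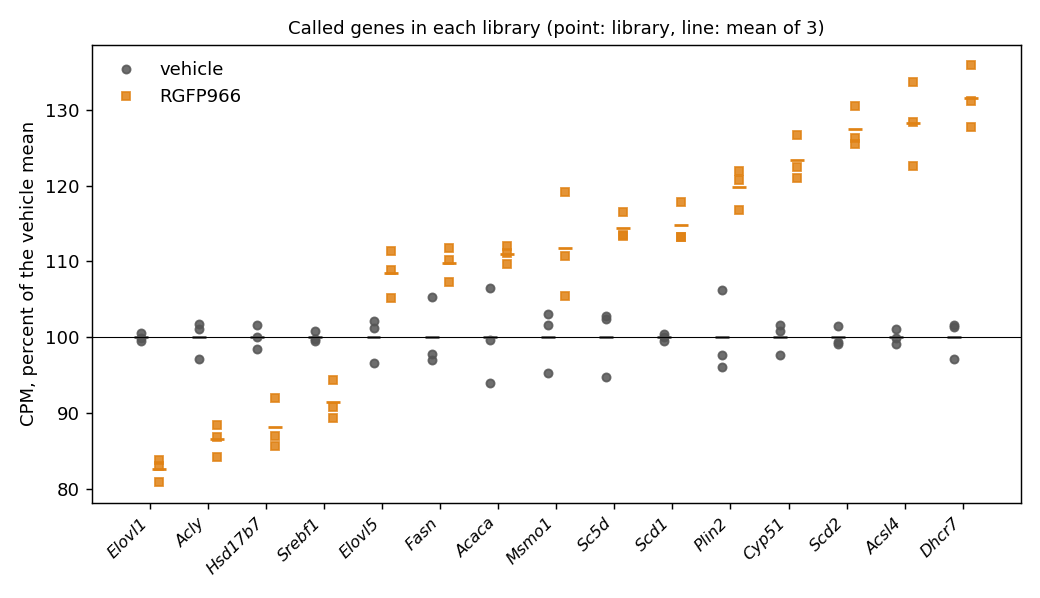
CPM of the 15 called genes in each library, as a percentage of that gene's vehicle mean (y axis), ordered from the largest fall to the largest rise (x axis), with 1 point per library and a line at each group mean. In all 15 the 3 RGFP966 points (squares) lie on one side of the 3 vehicle points (circles).

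All 15 called genes had groups that did not overlap, and so did 5 genes that were not called. RGFP966 lay above in 14 of the 41 tested genes and below in 6, where 17.8% of all genes tested lay above and 18.5% below. Of the 15 calls, 10 held under every one of the 15 alternative settings, namely those of Cyp51, Sc5d, Dhcr7, Acly, Acaca, Scd1, Scd2, Elovl1, Plin2 and Acsl4.

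**Figure D3:**
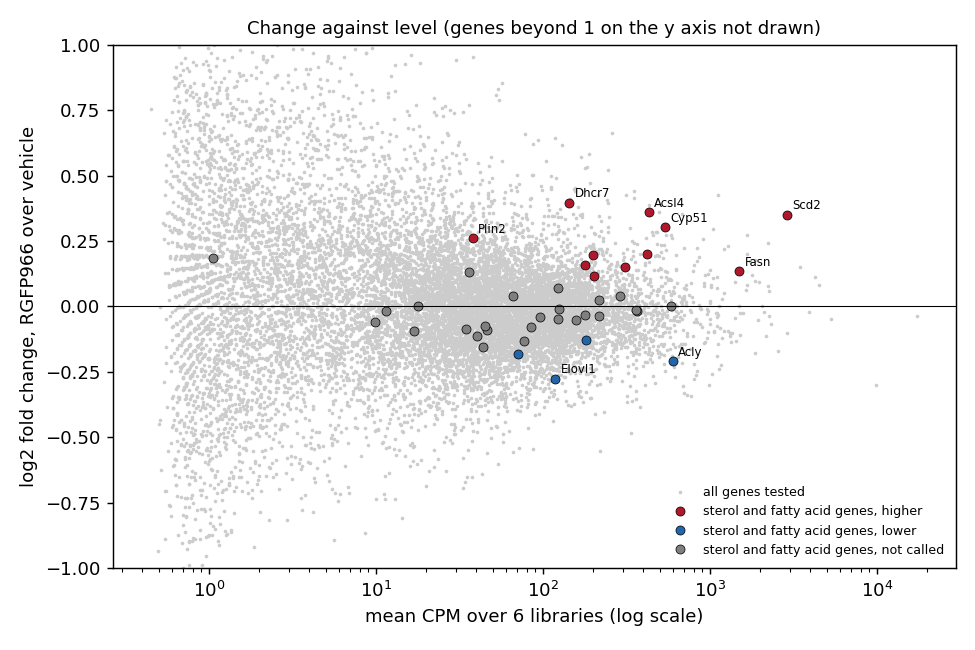
Log2 fold change (y axis) against mean CPM over 6 libraries (x axis, log scale) for all genes tested in light grey, with the sterol and fatty acid genes drawn larger and the called ones in red or blue. Scd2 and Fasn are the most abundant of the 41, and no called member lies beyond 0.40 on the log2 scale.

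Levels were compared between genes as CPM per kilobase of exon. Scd2 led with 464 ± 5.93 (SD, n = 3) in vehicle, followed by Fasn at 131 ± 5.98, Hmgcs1 at 128 ± 4.76, Acly at 121 ± 3.12, Insig1 at 117 ± 4.88 and Cyp51 at 109 ± 2.30. Fasn and Hmgcs1 differed by less than the SD of either. Cyp51 reached 135 ± 3.19 per kilobase with RGFP966 and so passed Hmgcs1, which stood at 128 ± 4.30. The lowest of the tested genes were Acacb at 1.80 ± 0.200, Acss2 at 1.75 ± 0.262 and Me1 at 0.257 ± 0.117, of which Acacb and Acss2 differed by less than the SD of either.

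Within pairs of related enzymes, the same per-length scale gave ratios in each library, described here with no test. Scd2 stood at 5.93, 5.74 and 5.78 times Scd1 in vehicle and at 6.49, 6.45 and 6.44 times in RGFP966 libraries. Acsl4 stood at 2.54, 2.50 and 2.58 times Acsl3 with vehicle and 3.02, 3.14 and 3.13 times with RGFP966. Elovl5 was 1.11 to 1.19 times Elovl1 with vehicle and 1.47 to 1.59 times with RGFP966. In these 3 pairs the more abundant partner took a larger share after the inhibitor in every library. Srebf2 stood at 1.54 ± 0.0534 (SD, n = 3) times Srebf1 with vehicle and 1.66 ± 0.0711 with RGFP966, and Insig1 at 11.8 ± 0.461 and 10.7 ± 0.590 times Insig2. The highest vehicle ratio of Srebf2 to Srebf1 (1.592) was just below the lowest with RGFP966 (1.608). Acaca stood at 9.56 ± 1.10 times Acacb with vehicle and 11.3 ± 0.900 with RGFP966, with overlapping groups. Elovl5 stood at 1.65 ± 0.0938 and 1.75 ± 0.0724 times Elovl6, also overlapping.

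**Figure D4:**
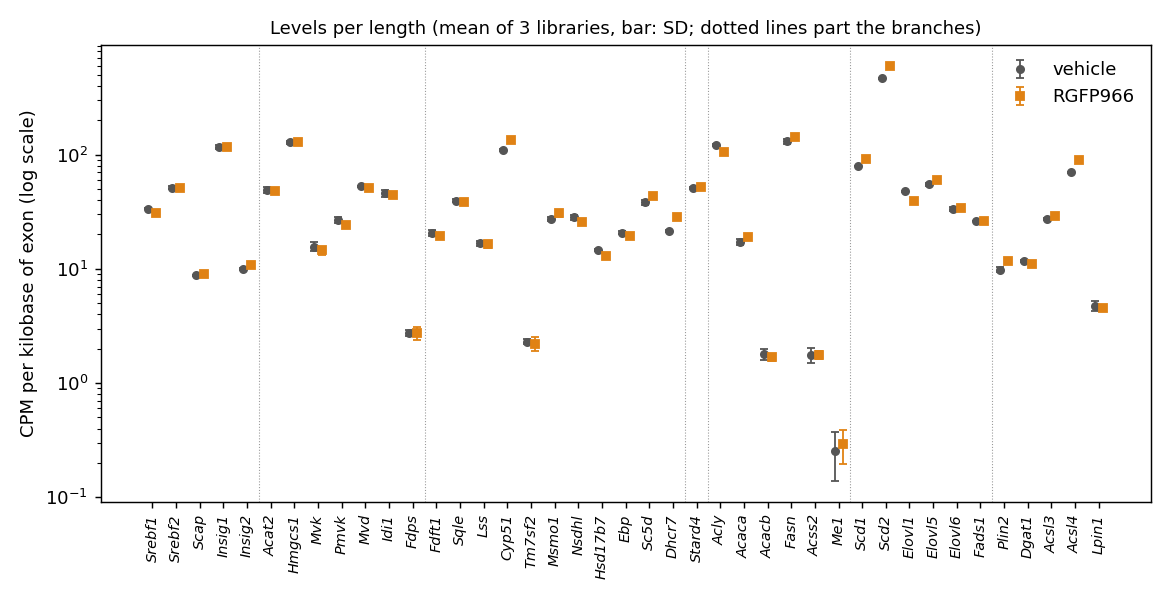
CPM per kilobase of exon (y axis, log scale) of the 41 tested genes in pathway order (x axis), as the mean of 3 libraries with the SD, vehicle as circles and RGFP966 as squares. Scd2 stands highest at 464 and Me1 lowest at 0.257 in vehicle.

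Promoters were read from RefSeq for 34 of the 43 genes, in 44 entries on GRCm38.p6, as the 250 bases before each start. Fdps, Fdft1, Sqle, Stard4, Scd1, Scd2, Fads1, Dgat1 and Dgat2 had no entry and were not searched. SREBPs bind sterol elements together with NF-Y or Sp1, so both strands were searched for the sterol element TCACNCCAC, the NF-Y box CCAAT, the GC box GGGCGG bound by Sp1, and the E-box CACGTG. The sequences printed here are those of the 3 largest rises and the 2 largest falls that have an entry at the annotated gene start. Hmgcs1, which was not called, is printed as the gene with an exact match to the sterol element. Capitals mark matches on either strand, and each sequence stops before the annotated transcript, so a gene may have further matches closer to its start. Dhcr7 and Elovl1 also have entries that are not printed. Of those of Dhcr7, the entry from 143829964 holds 2 NF-Y boxes and 3 GC boxes, and the entry from 143823149 holds 1 E-box. The entry of Elovl1 from 118429451 holds 2 GC boxes.
Dhcr7 (chr7:143822917-143823144, plus strand): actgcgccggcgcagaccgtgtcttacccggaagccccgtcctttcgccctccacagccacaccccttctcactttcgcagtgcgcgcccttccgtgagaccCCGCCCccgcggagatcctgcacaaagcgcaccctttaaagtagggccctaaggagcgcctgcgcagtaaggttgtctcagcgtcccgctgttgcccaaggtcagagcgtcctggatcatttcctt
Acsl4 (chrX:142390536-142390785, minus strand): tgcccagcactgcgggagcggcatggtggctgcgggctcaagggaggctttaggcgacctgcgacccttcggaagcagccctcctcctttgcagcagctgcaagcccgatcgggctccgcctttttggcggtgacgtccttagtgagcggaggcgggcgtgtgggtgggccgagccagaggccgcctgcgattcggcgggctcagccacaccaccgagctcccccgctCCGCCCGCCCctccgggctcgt
Cyp51 (chr5:4104747-4104947, minus strand): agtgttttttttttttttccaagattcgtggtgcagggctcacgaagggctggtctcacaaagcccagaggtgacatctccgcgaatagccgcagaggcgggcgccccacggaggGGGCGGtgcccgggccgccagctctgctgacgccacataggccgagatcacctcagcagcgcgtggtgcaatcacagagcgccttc
Elovl1 (chr4:118427843-118428092, plus strand): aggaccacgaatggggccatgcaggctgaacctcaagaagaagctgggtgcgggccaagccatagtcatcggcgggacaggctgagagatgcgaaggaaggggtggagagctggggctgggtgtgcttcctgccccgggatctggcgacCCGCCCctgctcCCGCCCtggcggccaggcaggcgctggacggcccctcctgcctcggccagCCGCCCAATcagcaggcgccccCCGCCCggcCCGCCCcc
Acly (chr11:100528001-100528250, minus strand): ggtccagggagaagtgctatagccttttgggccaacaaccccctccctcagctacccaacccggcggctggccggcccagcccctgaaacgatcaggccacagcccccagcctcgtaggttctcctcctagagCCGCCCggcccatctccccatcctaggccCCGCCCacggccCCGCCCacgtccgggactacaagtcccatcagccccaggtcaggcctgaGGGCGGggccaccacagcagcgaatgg
Hmgcs1 (chr13:119690101-119690350, plus strand): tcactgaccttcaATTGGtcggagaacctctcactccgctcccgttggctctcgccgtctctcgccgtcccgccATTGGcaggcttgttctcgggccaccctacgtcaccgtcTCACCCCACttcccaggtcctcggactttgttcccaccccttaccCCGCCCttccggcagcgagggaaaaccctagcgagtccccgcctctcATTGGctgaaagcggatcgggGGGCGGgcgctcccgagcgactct

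An exact match to the sterol element occurred in 1 of the 44 entries, that of Hmgcs1, 137 bases before the start. Such a match was in 1.05% of all 32851 promoters in the table. Variants of these letters were not searched, so an entry without a match may still hold a sterol element. The longer classical sterol element, with 1 more base in front and no free base, was in 0 of the 44 and in 0.0731% of all. Hmgcs1, which holds the element beside 3 NF-Y boxes and 2 GC boxes, had the smallest change of the 41 genes. Other genes overlap 12.1% of its exonic sequence, foremost Gm48342 on the other strand. The NF-Y box was in 61.4% of the entries of these genes, against 33.8% of all promoters and 35.4% of those of tested genes. The GC box was in 68.2% of the entries, against 32.7% and 56.0%. The E-box was in 13.6%, against 6.02% and 8.26%. By call, 7 of 9 higher, 3 of 4 lower and 16 of 20 uncalled genes with an entry held an NF-Y box. For a GC box these were 5 of 9, 4 of 4 and 16 of 20. A gene counted if any of its entries matched, so genes with several entries had more chances. Some entries, such as the only one of Acaca, lie inside the annotated gene. The share by gene over all genes was not computed. A match describes these letters alone and is no evidence of binding, and the lack of a match is no evidence against it.

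Genes next to these pathways were read from 6 further lists. Over their 99 tested genes 13 rose and 19 fell, where 11.4% of all tested genes were higher and 11.9% were lower, and their median log2 fold change was -0.02. Among 14 genes of SREBP processing and sterol-regulated degradation, 1 rose and 3 fell. Rnf145, a sterol-responsive ubiquitin ligase of the endoplasmic reticulum, rose from 184 ± 0.807 (SD, n = 3) to 247 ± 2.12 CPM (log2 fold change 0.43 ± 0.04 SE, edgeR adjusted p = 2.08e-12), above the value of Dhcr7 by less than the SE of either. Vcp, the segregase that extracts ubiquitinated proteins, fell by 0.15 on the log2 scale (adjusted p = 0.00358).

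Among 16 tested genes of LXR signalling and sterol efflux, 2 rose and 3 fell. Soat1, which esterifies cholesterol for storage, rose from 260.1 to 292 CPM (edgeR adjusted p = 6.59e-04), and Rxra, the partner receptor of LXR, from 9.62 to 13.3 CPM (adjusted p = 0.00259). Npc1, which exports cholesterol from lysosomes, fell from 139.5 to 119 CPM (adjusted p = 1.32e-04), and the oxysterol-binding protein gene Osbpl8 from 289 to 260 CPM (adjusted p = 0.00227). Of 15 isoprenoid genes 2 rose and 3 fell, with log2 fold changes of 0.16 for the prenyl protein protease gene Zmpste24, 0.26 for the polyprenyl synthase subunit gene Pdss2, and -0.21 for both the methyltransferase gene Icmt and the farnesyltransferase subunit gene Fntb (edgeR adjusted p = 0.00412, 0.0278, 0.00114 and 0.015).

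Of 16 tested genes of the elongation cycle and citrate supply, 2 rose and 4 fell. Hsd17b12, the ketoacyl reductase of elongation, rose by 0.12 on the log2 scale (edgeR adjusted p = 0.0229), and Elovl7, at 3.44 CPM in vehicle, by 0.68 (adjusted p = 0.00577). Idh1, a cytosolic source of NADPH, fell by 0.31 on the log2 scale (adjusted p = 5.90e-04) and the transcription factor gene Mlx by 0.17 (adjusted p = 0.0192). Of 19 tested genes of glycerolipid synthesis and lipid droplets, 3 rose and 4 fell. Acsl5, an acyl-CoA synthetase, fell from 212 to 178 CPM (adjusted p = 2.78e-06) where Acsl4 rose, and Plin3 fell from 105 to 91.3 CPM (adjusted p = 7.20e-04) where Plin2 rose. Gpat4 and Lpin2 rose by 0.15 and 0.69 on the log2 scale (adjusted p = 0.0141 and 0.0212). Of 19 tested fatty acid oxidation genes 3 rose and 2 fell. The acyl-CoA dehydrogenase gene Acadl rose by 0.24 and the carnitine carrier gene Slc25a20 by 0.20 on the log2 scale (adjusted p = 2.98e-05 and 0.0322). Echs1 and Hadhb, which act further along the oxidation cycle, fell by 0.21 and 0.17 on the log2 scale (adjusted p = 0.00238 and 0.00432).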

How the data were processed

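RNA sequencing of EL4 cells gave 6 libraries, and the authors deposited raw read counts for 51912 Ensembl mouse genes, 1 column per library. The submitters' processing notes name HTSeq 0.6.0, HISAT2 2.1.0, TopHat2, Bowtie2 2.2.3 and CASAVA on mm10, with no role given. Annotation release and strand setting: not given in the sources used here. Overlapping genes on opposite strands may share reads.

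Symbols matched 99.46% of the IDs. Positions and exon lengths came from GENCODE M21 (same assembly as mm10). Counts were fitted in edgeR 4.0.16 (R 4.3.3) with filterByExpr, trimmed-mean factors, group as the only term and the robust quasi-likelihood test. P-values were adjusted by Benjamini-Hochberg over the 13484 genes tested, and the threshold was 0.05. SE is the size of the log2 fold change divided by the root of the F statistic. In a test on simulated data for this comparison (13298 genes), 64.2% of genes changed 1.25-fold, 86.6% of those changed 1.5-fold and 98.5% of those changed 2-fold were recovered. Only 66 or 67 genes were changed at each fold, where 3145 genes were called in the data, and 5 unchanged genes were called. Most called members changed by less than 1.25-fold, and the recovery of such changes was not measured. Within a group no library was a copy of another (squared differences averaged 2.21 to 3.53 times the variance from counting error). Promoter sequences are RefSeq's. The 43 genes and all lists were chosen with earlier results of these data known. All 43 are named whatever their result, and from each neighbouring list up to 2 called genes of smallest adjusted p in each direction, of which 1 is not reported here. Plin1 and Cidec stand in both the lipid droplet and the adipocyte list. Alternatives were a replicate block, 3 scalings, 2 filters, thinning to the smallest total, DESeq2 1.42.0, limma-voom (limma 3.58.1) and leaving out each library.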

Additional observations from a re-analysis of the deposited data

How the results depend on the processing

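Of the 15 calls, 10 held in all 15 alternatives, and no called gene changed sign. The exceptions were Srebf1, Msmo1, Hsd17b7, Fasn and Elovl5, whose values stand beside them, and 2 further genes, Pmvk and Nsdhl, passed in some settings. With 1 library left out, the number of members higher ranged from 9 to 11 and of members lower from 2 to 5, and over all genes from 1238 to 1385 higher and 1116 to 1484 lower. In the DESeq2 Wald test 1011 genes were higher, against 1543, and 1076 were lower, against 1602. Of 90 recomputed branch medians 13 moved by over 1 SD between replicates, all in the branches of SREBP regulators, fatty acid synthesis, and desaturation and elongation. The fatty acid synthesis median was 0.00 after thinning, and the regulators' median was above 0 also under upper-quartile (0.01) and total-count scaling, with the stricter filter and after thinning. Without vehicle library 3 the median of fatty acid synthesis lay between the log2 fold changes of Acss2 (-0.10) and Me1 (-0.12), both scarce. Acly (-0.19), Acaca (0.20) and Fasn (0.18) kept their direction there. The cause of the moved medians was not tested. The replicate numbers in the labels did not pair the libraries: deviations from group means of same-numbered libraries correlated at -0.0182, 0.0132 and 0.00842. With the replicate number as a block 11 members were higher and 5 lower, and over all genes 1667 and 1764. Depth limits Me1, Tm7sf2, Acacb, Acss2 and Fdps, whose SE was 0.10 or more.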
